A study of Sus scrofa with 30 samples.

Results

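In pig blastocysts, 726 broad domains of trimethylation of histone H3 at lysine 27 (H3K27me3) lay where no H3K27me3 peak was called in metaphase II (MII) oocytes. They were chosen from the 66945 H3K27me3 peaks of blastocyst replicate 1. Of these peaks, 1585 were at least 5 kb wide on chromosomes 1 to 18. A domain was a member when at least 50% of it was covered by peaks of blastocyst replicate 2 and it met no H3K27me3 peak in either MII oocyte library. A further 799 broad domains passed the same width and replicate 2 rules but met an MII peak, and are called kept domains. That name states their overlap with oocyte peaks, not that the mark stayed on through cleavage. The remaining 60 broad domains were less than 50% covered by replicate 2. The blastocyst and MII values of H3K27me3 therefore chose the members and are given only as a description. The 726 domains are called new relative to MII oocytes only, because peaks lay in most of them before the blastocyst stage: 555 (76.4%) met an H3K27me3 peak in both morula libraries, against 2.29% of 7 kb windows of the same chromosomes.

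The series profiled pig oocytes and whole embryos fertilised in vitro by native chromatin immunoprecipitation from very few cells (ULI-NChIP-seq). H3K4me3 was measured in germinal vesicle (GV) oocytes, MII oocytes, 1-cell, 2-cell, 4-cell and 8-cell embryos, morulae and blastocysts, and H3K27me3 in MII oocytes and from the 2-cell stage to the blastocyst. In a further H3K4me3 group, siKDM5BC, zygotes were injected with siRNA (small interfering RNA) directed at KDM5B and KDM5C, enzymes that remove H3K4 methylation, and were collected at the 4-cell stage. Each of the 15 groups had 2 libraries, 30 in all. The labels name no embryos given a control siRNA, and siKDM5BC was compared with untreated 4-cell embryos. The labels give no pig strain and do not state that replicates were collected separately. The p-values therefore measure only the spread among libraries, which may be technical.

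H3K27me3 is laid down by Polycomb repressive complex 2 and is known for holding developmental genes silent in embryos. H3K4me3 marks active and poised promoters, and in oocytes it can also spread into broad domains away from promoters. Promoters that carry both marks are called bivalent and are a known feature of pluripotent cells. A blastocyst holds several cell types, so marks on the same chromosome copy and marks in different cells cannot be told apart in these lists.

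The new domains were a narrower and more scattered set than the kept domains. They spanned 5.3 Mb in all, against 6.57 Mb for the kept domains. Their median width was 6373 bp (5001 to 34967 bp), against 6788 bp (up to 49247 bp). Only 86 (11.8%) of the new domains reached 10 kb, against 148 (18.5%) of the kept ones. The authors' fold enrichment had nearly the same median in both sets, 4.05 in new and 4.04 in kept domains, and the highest fold was 8.25 in a new and 226 in a kept domain. Replicate 2 covered a median of 86.6% of a new domain and 92.5% of a kept one, and it covered 150 new domains in full. The median distance to the next broad domain of the same set was 624 kb for new domains and 130 kb for kept ones. Within 5 Mb of a chromosome end lay 344 (43.1%) of the kept domains and 64 (8.82%) of the new ones, where 7.95% of the chromosome length lies. These differences describe 2 sets divided by oocyte peaks and were not tested.

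Several values lay close to the limits of the rule. The 5 narrowest new domains were 5001, 5004, 5004, 5005 and 5013 bp wide. The first lies in CNTNAP2, a neurexin-family adhesion gene, and the second in PLB1, a phospholipase gene. The others lie between genes, nearest to BAHCC1, LOC110259945 and LOC100151870. The widest peaks that missed the width limit were 4998, 4993, 4993, 4991 and 4990 bp wide. Cover by replicate 2 was 50.34% in the member nearest the limit and 49.96% in the nearest domain outside it. The nearest MII peak lay at a median distance of 31.1 kb from a new domain, and within 10 kb of 177 (24.4%) of them.

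H3K27me3 peaks covered at most 2.70% of the new domain length in 2-cell and 4-cell embryos. They covered 2.19% and 11.7% in 8-cell embryos and 25.9% on average in morulae. Cover of their summed length was 0.169% and 0.0633% in the 2-cell libraries, 1.68% and 2.70% at the 4-cell stage, 2.19% and 11.7% at the 8-cell stage, and 23.7% and 28.2% in morulae. The morula libraries lay above all others, and 8-cell replicate 1 lay between the 4-cell libraries while replicate 2 lay above them. By the rule, cover was 0% in both MII libraries and 100% and 86.2% in blastocysts. The stage means were 0.116 ± 0.0747% (2-cell), 2.19 ± 0.721% (4-cell), 6.94 ± 6.72% (8-cell) and 25.9 ± 3.18% (morula; SD, n = 2 each). The morula mean exceeded the 2-cell mean by 25.8 percentage points. An exact permutation test of F over the 8 libraries of these 4 stages, one-sided in F, gave p = 0.0381. After Benjamini-Hochberg (BH) adjustment over the 8 tests of the report this exact p became 0.061, above the 0.05 threshold. The rule asked for this mark in blastocysts and for none in MII oocytes, so a rise between them is not independent of it. Without 2-cell replicate 1, 2-cell replicate 2 or 4-cell replicate 1 the exact p before adjustment was 0.0667, and a peak limit of 3 on −log10 q left a difference of 5.58 points.

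Libraries differed in how much of the genome was called, so each share was also divided by the share of chromosomes 1 to 18 covered in the same library. By this ratio the new domains held 1.94 and 1.14 times the chromosome-wide cover at the 2-cell stage, and 2.19 and 2.25 times at the 4-cell stage. The ratio was 9.01 and 8.06 at the 8-cell stage, where the replicates came close to each other, and 51.9 and 49.4 in morulae. From the 2-cell stage to the morula the libraries of each later stage lay above those of each earlier stage. In blastocysts, whose peaks chose the domains over a larger called share of the chromosomes, the ratio was 29.1 and 19.9. The morula mean exceeded the 2-cell mean by 49.1 (n = 2 per stage, exact permutation p = 0.00952, the smallest this design allows, BH-adjusted 0.019). As for the share, this rise is not independent of the rule, and the test describes the set so chosen. Morula H3K27me3 peaks were few over all chromosomes, covering 0.455% and 0.571% of them. Cover of the new domains was 4.32% and 6.84% in morulae when only peaks with −log10 q of 3 or more were used.

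Counts of single domains rose with stage when both libraries were required, but 8-cell replicate 1 lay below 4-cell replicate 2. A peak of H3K27me3 met 20 and 9 of the 726 domains in the 2-cell libraries, 105 and 162 at the 4-cell stage, 121 and 346 at the 8-cell stage, and 588 and 628 in morulae. Domains met in both libraries of a stage numbered 0, 72 (9.92%), 117 (16.1%) and 555 (76.4%). The background was taken from 323643 windows of 7 kb tiled over the same chromosomes, a little wider than the median domain. The share of windows met in both libraries was 0.125% at the 2-cell stage, 4.18% at the 4-cell stage, 2.02% at the 8-cell stage and 2.29% in morulae. At least 50% cover in both morula libraries was reached by 43 new domains (5.92%), against 0.0457% of windows. No H3K27me3 peak in any 2-cell or 4-cell library met 521 (71.8%) of the new domains.

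**Figure D1:**
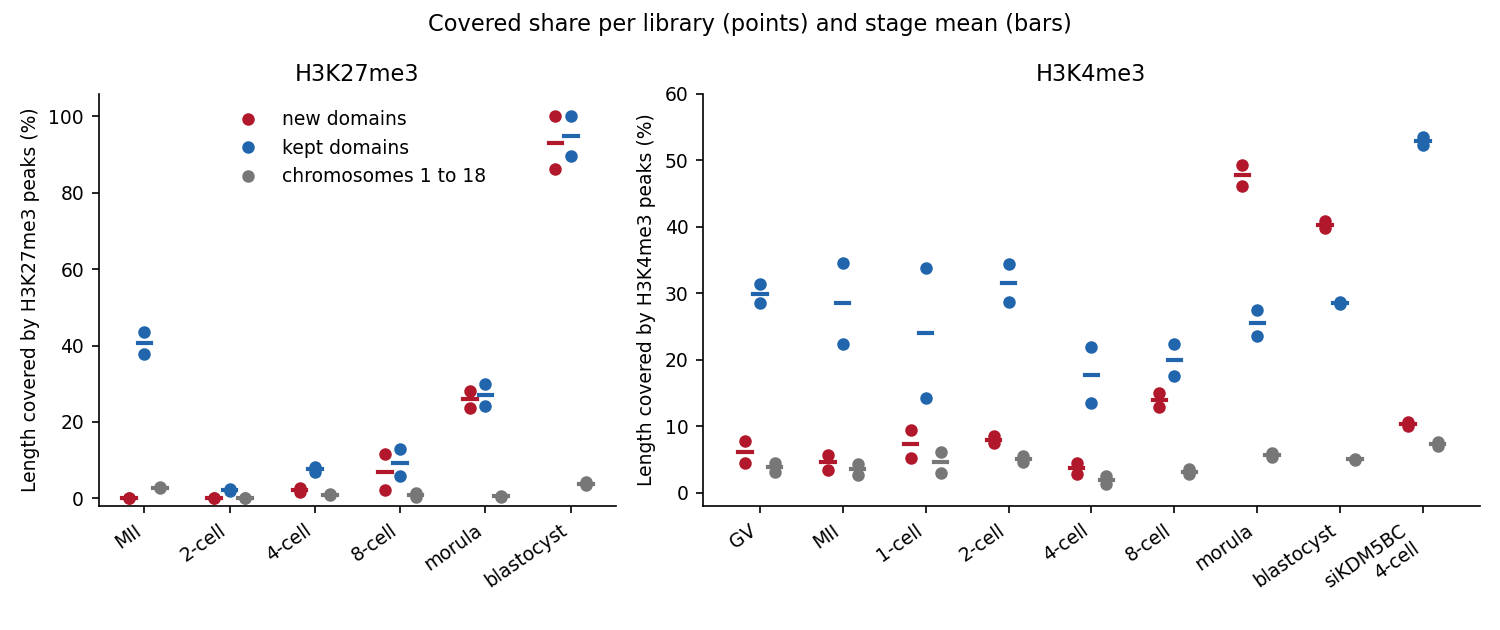
Share of summed domain length covered by peaks (percent, vertical axis) in each library, by stage (horizontal axis), for H3K27me3 and H3K4me3, with new domains, kept domains and all of chromosomes 1 to 18 as separate series, each point being a library. New domains were covered 23.7% and 28.2% by H3K27me3 and 46.1% and 49.3% by H3K4me3 in morulae, and lay below kept domains for H3K4me3 at each stage up to the 8-cell embryo.

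Kept domains held more H3K27me3 than new ones in early cleavage and came near to them by the morula. MII peaks covered 43.5% and 37.9% of the kept domains. Cover of kept domains was then 2.34% and 1.96% in 2-cell embryos, 7.01% and 8.22% in 4-cell embryos, 5.80% and 12.9% in 8-cell embryos, and 24.3% and 30% in morulae. New domains were covered less than kept domains in all 8 libraries from the 2-cell stage to the morula. MII peaks of this same mark divided the sets, so this contrast is not independent of the rule. The mean difference was −2.76 ± 1.86 percentage points (SD over 8 libraries, exact sign-flip permutation test, two-sided, p = 0.00781, the smallest possible, BH-adjusted 0.019). It was −1.20 points (exact p = 0.109) with a width limit of 3 kb and −1.33 points (exact p = 0.156) when the domains were taken from replicate 2. It was −2.76 points (exact p = 0.125, the smallest possible) on the 4 stage means. When −log10 q had to reach 3, 2-cell cover was 0% in new domains and 1.64% and 1.55% in kept ones. At that limit H3K4me3 also covered 1.64% of kept and 0% of new domains in MII replicate 1. The H3K27me3 differences in 8-cell replicate 2 and morulae were of like size, at −1.11, −0.673 and −1.77 points. How far the difference between the sets rests on such strongly called kept sequence was not tested.

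H3K4me3, which the rule did not use directly, also came to lie on the new domains late. It covered 7.73% and 4.50% of their length in GV oocytes, 3.48% and 5.67% in MII oocytes, 5.29% and 9.43% in 1-cell embryos, and 8.50% and 7.49% in 2-cell embryos. In 4-cell embryos the values were 4.54% and 2.88%, and in 8-cell embryos 12.9% and 15.0%. In morulae they were 46.1% and 49.3%, and in blastocysts 39.8% and 40.8%. The morula and blastocyst libraries lay above every earlier library, and both 8-cell libraries lay above all libraries of the stages before them. The means were 3.71 ± 1.17% (4-cell), 13.9 ± 1.48% (8-cell), 47.7 ± 2.26% (morula) and 40.3 ± 0.707% (blastocyst; SD, n = 2 each). Cover differed across the 8 stages, by 44.0 points between the morula and 4-cell means (permutation test of F, one-sided, 16 libraries, p = 0.00018, BH-adjusted 0.00072). With only peaks of fold 4 or more, a setting chosen after seeing the data, the difference was 17.3 points (permutation p = 0.00395). Kept domains, which the rule set aside for their MII H3K27me3 peaks, averaged 28.5% H3K4me3 in MII oocytes, against 4.58% in new ones. Low early H3K4me3 in the new set is thus not independent of the rule, and the stage tests describe the set so chosen.

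Set against all chromosomes, H3K4me3 cover of new domains was 1.29 to 2.10 times the chromosome-wide cover in the 10 libraries from GV oocyte to 4-cell embryo. It was 4.56 and 4.27 times at the 8-cell stage, 8.62 and 8.31 times in morulae, and 8.01 and 7.99 times in blastocysts. Replicates within each of these 3 late stages differed by less than the stages did. The ratio differed across stages, by 7.16 between the morula and MII means (permutation test of F, 16 libraries, p = 4e-05, BH-adjusted 0.00032). The authors' fold of H3K4me3 peaks meeting new domains had a median of 3.76 and 3.48 in morulae, against 3.71 and 3.34 for all peaks of those libraries. In blastocysts it was lower than for all peaks, 3.57 and 3.63 against 3.68 and 3.76. Morula peaks meeting new domains had a larger median width, 2808 and 3042 bp against 1125 and 1070 bp for all peaks. A wider peak has more chance of meeting a domain.

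In kept domains the H3K4me3 course ran otherwise. It covered 31.3% and 28.5% of them in GV oocytes, 21.9% and 13.5% in 4-cell embryos, 23.5% and 27.5% in morulae, and 28.3% and 28.6% in blastocysts. New domains were covered less than kept domains in all 12 libraries from GV oocyte to 8-cell embryo, and more in all 4 morula and blastocyst libraries. The difference between the sets averaged −14.0 points in 4-cell embryos, −6.03 points in 8-cell embryos, +22.2 points in morulae and +11.8 points in blastocysts. Over all 16 libraries it averaged −9.24 ± 17.3 points (SD), and the exact sign-flip permutation test, two-sided, gave p = 0.0523 (BH-adjusted 0.0697). That mean joins differences of opposite sign, and the early and late stages were not tested against each other. It was −7.93 points at the smallest and −11.4 points at the largest on leaving out each library in turn. Without a single morula or blastocyst library the exact p was 0.0172 to 0.0333. With peaks of −log10 q 3 or more the mean was +0.217 points (exact p = 0.909).

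Counted by domain, 340 of the 726 new domains (46.8%) were at least 50% covered by H3K4me3 in both morula libraries, against 1.81% of the 7 kb windows and 134 (16.8%) of the kept domains. In blastocysts the count was 215 (29.6%), against 1.91% of windows and 127 (15.9%) of kept domains. In 8-cell embryos it was 16 (2.2%), against 0.321% of windows. At earlier stages it was 15 in GV oocytes (2.07%, windows 0.477%), 5 in MII oocytes (0.689%, windows 0.299%), 15 in 1-cell embryos (2.07%, windows 0.358%), 18 in 2-cell embryos (2.48%, windows 0.889%) and 9 in 4-cell embryos (1.24%, windows 0.1%). The median new domain was covered 0% at each stage up to the 4-cell embryo, 9.17% at the 8-cell stage, 53.7% in morulae and 36.4% in blastocysts, on the mean of the 2 libraries. Of the 340 domains, 189 (55.6%) were also at least 50% covered in both blastocyst libraries. These 189 made up 87.9% of the 215 blastocyst domains. At the other end, 62 new domains (8.54%) met no H3K4me3 peak in any morula or blastocyst library. No H3K4me3 peak in any library from GV oocyte to 4-cell embryo met 309 (42.6%) of the new domains, against 47 (5.88%) of the kept ones.

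The change within single domains was followed by asking whether both late libraries lay above all 10 libraries from GV oocyte to 4-cell embryo. In morulae 468 new domains (64.5%) did so, against 11.7% of windows and 165 (20.7%) of kept domains. In blastocysts 464 (63.9%) did so, against 9.23% of windows and 184 (23.0%) of kept domains. The opposite, both late libraries below all early ones, was seen in 7 new domains (0.964%) at each of the late stages, against 0.645% of windows in morulae and 0.621% in blastocysts. Among kept domains it was seen in 86 (10.8%) in morulae and 72 (9.01%) in blastocysts. Kept domains held more H3K4me3 early, so the contrast between the sets also depends on the rule that divided them.

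**Figure D2:**
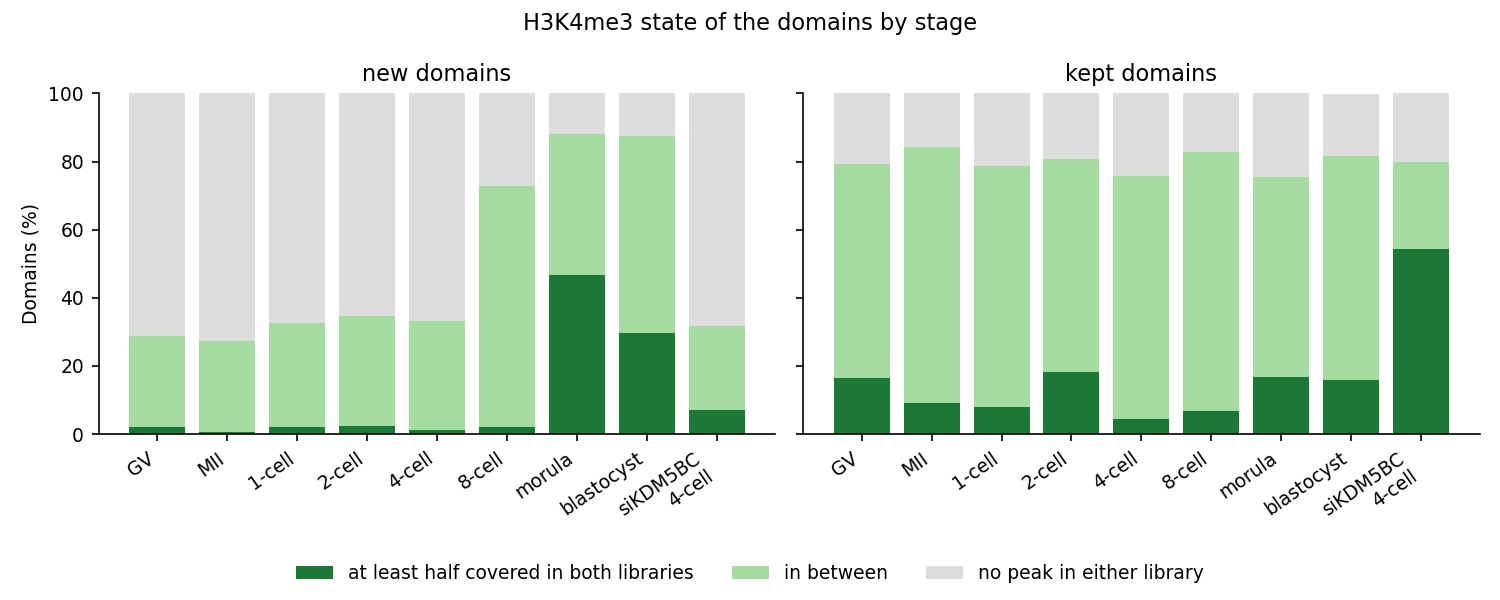
Domains by H3K4me3 state at each stage (horizontal axis) as a percent of all domains in the set (vertical axis), for new and kept domains, with stacked bars for the state in both libraries. Domains at least 50% covered in both libraries made up 46.8% of new domains in morulae and 29.6% in blastocysts, against 16.8% and 15.9% of kept domains.

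Bases covered by both marks were counted next. In morulae 40.4% of the summed length of new domains was covered by H3K4me3 in both libraries, 15.2% by H3K27me3, and 9.2% by both marks. In kept domains the shares were 20.2%, 16.8% and 6.5%. Of the morula H3K27me3 length 60.7% also held H3K4me3 in new domains and 38.7% in kept ones. The reverse share was lower in new domains, where 22.8% of the H3K4me3 length also held H3K27me3, against 32.3% in kept domains. In blastocysts 30.1% of the new domain length held both marks, but H3K27me3 chose the domains there, so this share restates their H3K4me3 cover, 32.3% in both libraries. An H3K27me3 peak in both morula libraries met 555 (76.4%) of all new domains. Such peaks met 295 (86.8%) of the 340 new domains with at least 50% H3K4me3 cover in morulae. They met 32 (51.6%) of the 62 new domains with no late H3K4me3 peak. The same contrast was wider in kept domains, with 126 of 134 against 31 of 115 met. It was thus not particular to the new domains. An input control is not given in the sources used here, and the part of signal common to both antibodies was not tested.

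The late H3K4me3 was centred on the domains. In morulae it covered 51.4% and 54.1% of the 2 kb on either side of the domain centre, against 7.78% and 8.85% of the sequence 20 to 50 kb away. The centre held 42.0% and 43.5% in blastocysts, with 7.40% and 7.50% in the flanks. In 4-cell embryos centre and flanks were closer, at 4.38% and 2.87% against 2.89% and 1.70%. H3K27me3 in morulae was as narrow, with 27.7% and 32.2% at the centre and 1.29% and 1.46% in the flanks. The flanks of kept domains held 17.1% and 21.9% H3K27me3 in blastocysts, and those of new domains 6.51% and 7.98%.

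**Figure D3:**
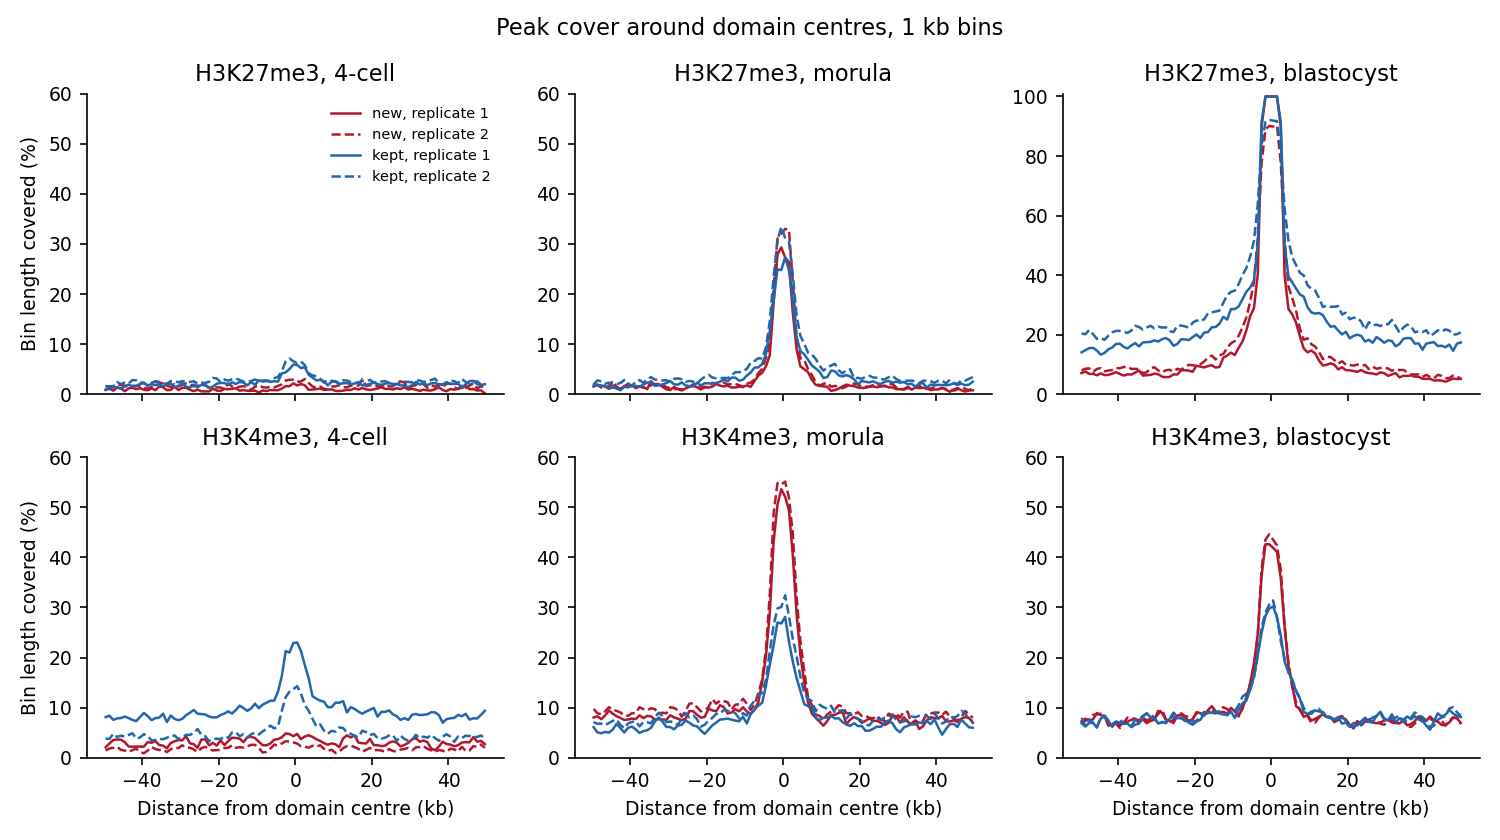
Percent of bin length covered by peaks (vertical axis) in 1 kb bins up to 50 kb from the domain centre (horizontal axis, kb). Panels show H3K27me3 and H3K4me3 in 4-cell embryos, morulae and blastocysts, with new and kept domains as separate lines and replicates solid and dashed. In new domains morula H3K4me3 stood at 51.4% and 54.1% around the centre and 7.78% and 8.85% in the flanks.

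In morulae the widest new domains had lower H3K4me3 cover and higher H3K27me3 cover than the narrowest. In the 280 new domains of 5 to 6 kb, morula libraries covered 47.9% and 52.5% by H3K4me3 and 19.5% and 23.2% by H3K27me3. In the 86 domains of 10 kb or more the values were 41.6% and 42.0% for H3K4me3 and 31.1% and 37.1% for H3K27me3. Both morula libraries moved the same way between these classes for each mark. In blastocysts H3K4me3 ran the other way, with 37.2% and 39.3% at 5 to 6 kb and 42.2% and 41.4% at 10 kb or more. Width is itself a blastocyst H3K27me3 value that the rule used. These shares come from the same libraries and were not tested.

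New domains were placed against genes much like the windows, with some excess at gene ends. A gene end, within 1 kb of either end of a coding gene because the annotation used gave no strand, was met by 139 new domains (19.1%), against 11.4% of windows and 215 (26.9%) of kept domains. A gene body without an end held 243 (33.5%), against 41.2% of windows and 198 (24.8%) of kept domains. The other 344 (47.4%) lay between genes, at a median of 44.2 kb from the nearest coding gene, the same share as for windows. Late H3K4me3 reached all 3 places. At gene ends it covered 12.1% and 7.92% in 4-cell embryos and 56.2% and 57.5% in morulae. In gene bodies the values were 2.7% and 1.69%, then 40.5% and 45.3%. Between genes they were 2.34% and 1.39%, then 45.5% and 48.4%. H3K27me3 in morulae covered 31.7% and 35.4% at gene ends, 22.9% and 28.6% in gene bodies and 20.4% and 24.5% between genes.

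**Figure D4:**
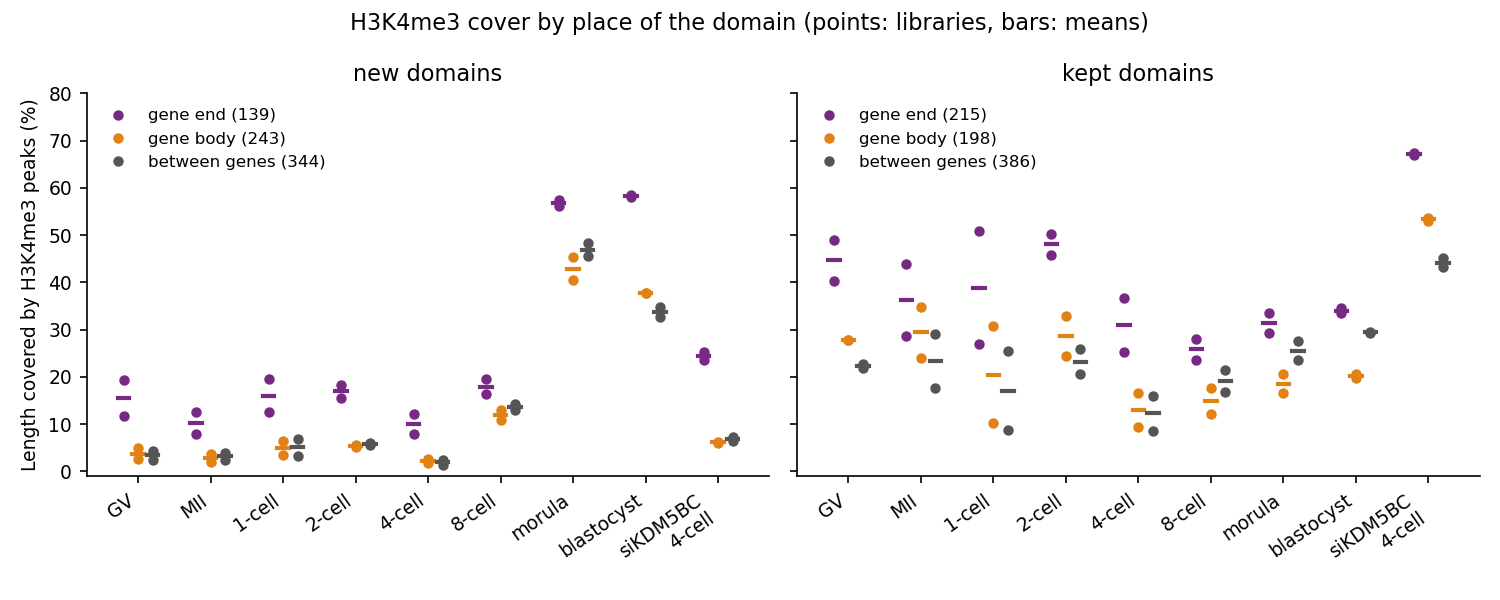
Share of new domain length covered by H3K4me3 (percent, vertical axis) in each library, by stage (horizontal axis), for domains at a gene end, in a gene body and between genes. Morula libraries lie at 56.2% and 57.5% at gene ends, 40.5% and 45.3% in gene bodies and 45.5% and 48.4% between genes, all above the 4-cell libraries.

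Chromosome 6 held the most new domains, 104, or 6.09 per 10 Mb, against 3.2 per 10 Mb over chromosomes 1 to 18. Chromosome 1 held 86 (3.13 per 10 Mb), chromosome 13 held 67 (3.22) and chromosome 2 held 60 (3.95). Chromosome 18 had the lowest density, 11 domains or 1.97 per 10 Mb.

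New domains met the bodies of 352 coding genes, 1.88% of the 18722 on these chromosomes, and kept domains met 346 (1.85%), with 18 genes met by both. The genes were compared with lists of known families, by count and with no test. Genes of developmental factors, known Polycomb targets, were counted mostly in the kept domains. None of the 36 HOX genes, which set body axis identity, met a new domain, and 8 met a kept one. Of 102 homeobox and paired-box factors outside HOX, 3 (2.94%) met a new domain and 35 (34.3%) a kept one. Of 125 SOX, TBX, FOX, GATA, bHLH and other developmental factors, 5 (4.0%) met a new and 24 (19.2%) a kept domain. WNT, FGF, BMP, hedgehog and Notch ligands and antagonists gave 0 of 90 and 7. Receptors of these pathways gave 3 of 36 (8.33%) in new domains and 0 in kept ones, but 0 had an end in a new domain. A gene was met from 1 bp anywhere in its body, so longer genes have more chance of being met. The list shares were not adjusted for gene length. The early lineage lists gave no gene in new domains, with 0 of 25 for pluripotency, 0 of 25 for trophectoderm and 0 of 21 for hypoblast, against 0, 1 and 5 in kept domains.

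Lists of differentiated functions met new domains at shares of 2.08% to 4.96%, against 1.88% of all genes. Solute carriers, the membrane transporters, gave 8 of 330 (2.42%) in new and 8 in kept domains. Collagens, laminins and other matrix genes gave 6 of 121 (4.96%) and 5. Potassium, sodium and calcium channels gave 4 of 125 (3.2%) and 10, and axon guidance genes 3 of 70 (4.29%) and 5. Neurotransmitter receptors gave 2 of 96 (2.08%) and 3, cadherins 1 of 41 (2.44%) and 4, and imprinted genes 2 of 38 (5.26%) and 4. Counted by gene ends, new domains met 3 solute carriers, 2 matrix genes, 1 channel and 1 axon guidance gene. By that count they met 0 neurotransmitter receptors, 0 cadherins and 0 imprinted genes. No gene met either set among 33 oocyte and maternal effect genes, 31 Polycomb and H3K27 demethylase genes, 19 H3K4 methylation enzymes, 78 ribosomal, 38 proteasome and 35 complex I genes, 18 cumulus and granulosa genes and 17 sperm genes. No olfactory receptor symbol was matched in the annotation.

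**Figure D5:**
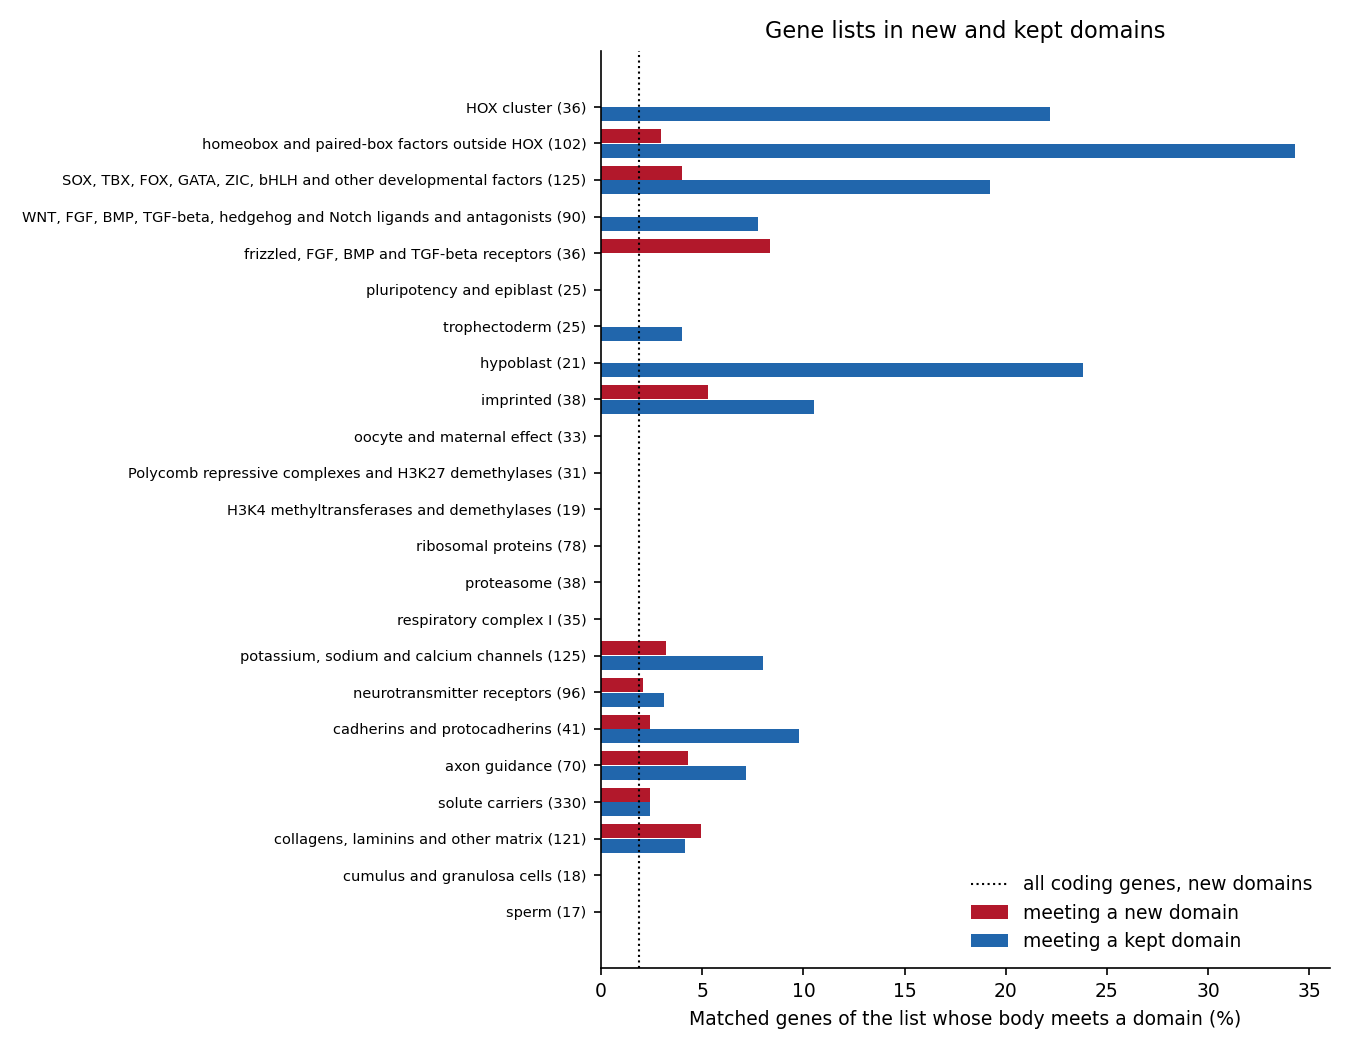
Genes of each list that meet a new or a kept domain, as a percent of the list's genes on chromosomes 1 to 18 (horizontal axis), with 1 line of the plot per list. Homeobox and paired-box factors outside HOX stand at 2.94% for new and 34.3% for kept domains, and pathway receptors at 8.33% and 0%. The shares are not adjusted for gene length.

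A group that was picked only after its values had been seen, the ZNF, ZFP and ZSCAN zinc finger genes, was more common. Of 265 such genes, 39 (14.7%) met a new domain and 11 (4.15%) a kept one, and 29 had an end in a new domain. Chromosome 6 carried 19 of the domains concerned. Many of these genes belong to families of near-identical copies, so the place of their peaks is uncertain where reads map to several copies. ZNF470 (chromosome 6, 60888632 to 60893799) was covered by H3K27me3 at 7.84% and 80.6% in 8-cell embryos and 81.3% and 84.4% in morulae. H3K4me3 was at 4.39% or less there up to the 4-cell stage, 100% in both morula libraries and 100% and 70.7% in blastocysts. ZNF114 (chromosome 6, 53722217 to 53727263) had no peak of either mark through the 4-cell stage, then 97.8% and 54.9% H3K27me3 and 100% H3K4me3 in both morula libraries. Both marks covered over 50% of these 2 zinc finger domains in both morula libraries.

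The other domains with the highest H3K27me3 cover in morulae behaved in more than 1 way. LOC100518738 on chromosome 6 (62876999 to 62884253) had 90.6% and 81.5% H3K27me3 and 81.0% and 100% H3K4me3 in morulae. A domain 13.9 kb from C13H3orf56 on chromosome 13 (72856955 to 72862923) had 82.2% and 73.7% H3K27me3 and 85.0% and 84.3% H3K4me3. A domain 7.11 kb from CMAS, a sialic acid activation enzyme, on chromosome 5 (51465639 to 51470933) had 77.5% and 73.5% H3K27me3 but 30.7% and 39.0% H3K4me3. The first 2 of these had H3K4me3 over most of their length and the third over less of it.

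Most of the new domains at transcription factor genes carried H3K4me3 in oocytes. An H3K4me3 peak in both GV libraries met 126 (17.4%) of all new domains, against 13.6% of windows, and 57 (41%) of those at a gene end, so early H3K4me3 was not confined to these factors. PAX6 (gene 100514152), a paired-box factor of eye and nervous system, had a domain of 15621 bp over a gene end on chromosome 2 (28967564 to 28983184). H3K27me3 there was 0% in all libraries before the morula, and 45.1% and 54% in morulae. H3K4me3 was 77.5% and 60.5% in GV oocytes, 60.8% and 55.1% in 4-cell embryos, 45.9% and 49.2% in morulae and 40.4% and 44.8% in blastocysts. The GV libraries lay above the blastocyst ones. ISL2, a LIM homeobox factor of motor neurons on chromosome 7 (56571702 to 56578687), had 100% and 63.4% H3K4me3 in GV oocytes, 55.3% and 79.4% in morulae and 75% and 57.5% in blastocysts. Its morula H3K27me3 was 38.1% and 53.9%. ALX1, a craniofacial homeobox factor on chromosome 5 (96783712 to 96791610), had 64.5% and 46.9% H3K4me3 in GV oocytes and 47.3% and 45.7% in morulae, with 17.2% and 21.6% H3K27me3 in morulae. In all 3 homeobox domains H3K4me3 thus covered 46.9% or more in GV oocytes, while H3K27me3 was first called in morulae.

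LEF1, a transcription factor of Wnt signalling on chromosome 8 (113819966 to 113827625), had H3K4me3 at 90.5% and 81.3% in GV oocytes and 62.7% and 66.8% in morulae, and H3K27me3 at 32.3% and 18% in morulae. EBF2, a factor of adipocyte and neural development on chromosome 14 (10018721 to 10025093), had H3K4me3 at 100% and 92.8% in GV oocytes, 15.4% and 4.36% in 8-cell embryos and 35.6% and 36.5% in morulae. SOX6, a factor of cartilage and erythroid development, met 2 new domains on chromosome 2. In its wider domain (42447464 to 42454057) H3K27me3 was 0% in both morula libraries and H3K4me3 was 25.4% and 30%. MAF and NEUROG2 were the other 2 factors, the second with H3K4me3 at 76.7% and 51.8% in GV oocytes and 13.0% and 22.0% in morulae. Of the 8 transcription factors, 7 had H3K4me3 in GV oocytes and MAF had none before the 8-cell stage.

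Receptor domains lay inside genes and had little H3K4me3 in 4-cell embryos. BMPR1B, a type I receptor for bone morphogenetic proteins, held a domain of 11264 bp on chromosome 8 (124924403 to 124935666). H3K27me3 there was 0% and 7.77% in 8-cell embryos and 52.3% and 77% in morulae. H3K4me3 was 0% in both 4-cell libraries, 3.53% and 2.98% in 8-cell embryos, 47.3% and 97.6% in morulae and 74.1% and 62.4% in blastocysts. Both marks were thus at 7.77% or less through the 8-cell stage and at 47.3% or more in morulae. NOTCH2, a Notch receptor on chromosome 4 (101012453 to 101024239), had 23.7% and 37.1% H3K27me3 and 20.8% and 7.96% H3K4me3 in morulae, and no H3K4me3 peak in blastocysts. ROR1, a Wnt-binding receptor on chromosome 6 (148782135 to 148787396), met no H3K27me3 peak before the blastocyst.

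The imprinted genes PLAGL1 and GNAS, each known to be expressed from 1 parental copy at least in some tissues, had different courses. PLAGL1 (gene 733596), a zinc finger factor, lies at 21299830 to 21371070 on chromosome 1 and met 2 new domains, of 16304 and 21810 bp, 1327 bp apart. In the wider of them, H3K27me3 was 26.4% and 24.6% in morulae. H3K4me3 was 0% in all oocyte libraries, 21.1% and 29.3% in 8-cell embryos, 13% and 16.8% in morulae and 13% and 15.6% in blastocysts. GNAS, the stimulatory G protein alpha subunit on chromosome 17 (58995999 to 59002363), had H3K27me3 at 32.4% and 24.1% in 4-cell embryos, 0% and 56% in 8-cell embryos and 27.8% and 26% in morulae. Its H3K4me3 was 100% and 86% in 4-cell embryos and 96.9% and 93.3% in morulae. GNAS thus carried peaks of both marks in both 4-cell libraries, where the PLAGL1 domain had at most 2.62% H3K27me3 and 5.17% H3K4me3. The parental copy that carried a mark was not measured.

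Domains in genes of differentiated tissues showed late H3K4me3 in some cases and none in others. KCNQ5, a voltage-gated potassium channel on chromosome 1 (52929504 to 52935617), had H3K4me3 at 8.8% or less in every library up to the 8-cell stage, then 100% and 80% in morulae and 100% and 85.5% in blastocysts. GABRG3, a GABA receptor subunit on chromosome 1 (140164496 to 140169549), had none before the 8-cell stage, then 85.6% and 84.7% in morulae and 74.1% and 32% in blastocysts. The metabotropic glutamate receptor GRM5 on chromosome 9 (22102614 to 22111080) had 44.2% and 65% in morulae. In each of these 3 domains the morula libraries lay above all earlier ones. ADAMTS17, a matrix protease on chromosome 1 (138789393 to 138796535), had no H3K4me3 peak from GV oocyte to 2-cell embryo, 47.3% and 64% in morulae and 63.4% and 65.1% in blastocysts. COL24A1, a fibrillar collagen on chromosome 4 (130243103 to 130249700), had none through the 4-cell stage, and 43.4% and 50.9% in morulae. At COL24A1 both morula libraries lay above all earlier ones, and at ADAMTS17 8-cell replicate 2, at 60.7%, lay between the morula libraries.

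Other domains had little or no late H3K4me3. CDH13, an atypical cadherin on chromosome 6 (5804039 to 5810738), had 13.1% and 23% H3K27me3 in morulae and no H3K4me3 peak in any morula or blastocyst library. SEMA6D, an axon guidance semaphorin on chromosome 1 (124416221 to 124425115), met no H3K4me3 peak in any library. SLC25A21, a mitochondrial carrier on chromosome 7 (63214886 to 63224360), had H3K4me3 at 2.77% and 0% in morulae and none in blastocysts. These 3 domains lay inside genes, away from both ends. A further group had H3K4me3 early and late. KCNG1, a modifier subunit of potassium channels on chromosome 17, had 45.8% and 34.0% in GV oocytes and 22.9% and 27.1% in morulae. COL2A1, the cartilage collagen on chromosome 5, had 45.7% and 33.1%, then 13.6% and 22.0%. The netrin-family gene NTNG2 on chromosome 1 had 71.1% and 56.4%, then 29.6% and 28.3%. These 3 domains met a gene end, and in each the GV libraries lay above the morula ones. KCNN3, a calcium-activated potassium channel on chromosome 4, had none in GV oocytes, 19.7% and 13.7% in 1-cell embryos and 9.97% and 12.9% in morulae. The guidance cue NTN1 on chromosome 12 had 10.8% and 0% in GV oocytes and 25.6% and 15.1% in morulae. At NTN1, 2-cell replicate 1 lay above both morula libraries. Both domains were at 0% in both 4-cell libraries, so their H3K4me3 was not confined to late stages but was not called throughout.

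The widest new domain, 34967 bp on chromosome 2 (50734994 to 50769960), lay between genes, 34.8 kb from JMJD4. H3K27me3 there was 5.31% and 62.4% in 8-cell embryos and 50.2% and 52.4% in morulae. H3K4me3 was below 1% in every library up to the 4-cell stage, 40.6% and 37.5% in 8-cell embryos, 89.6% and 89.1% in morulae and 69.8% and 65.9% in blastocysts. The fourth widest, 22543 bp on chromosome 5 (42253734 to 42276276), met an end of KIAA1551. Its H3K4me3 was 0% in all 4-cell and 8-cell libraries, 86.1% and 87.0% in morulae and 82.9% in both blastocyst libraries. LOC100738134 on chromosome 13 (27935758 to 27956892), LOC102164889 on chromosome 6 (46361861 to 46381328) and LOC100526059 on chromosome 8 (42314542 to 42333706) were alike, with morula H3K4me3 of 85.5% and 77.9%, 75.3% and 90.4%, and 51.1% and 50.8%. In these 5 wide domains H3K4me3 covered over 50% in both morula libraries.

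The other wide domains had less H3K4me3 late. A domain of 24954 bp on chromosome 12 (57964896 to 57989849), 22.0 kb from COX10, an enzyme of haem A synthesis, had 42.9% and 51.6% H3K27me3 and 12.1% and 15.0% H3K4me3 in morulae. SLC1A5, a neutral amino acid transporter on chromosome 6, had a domain of 24324 bp (52652688 to 52677011) with 53% and 51.8% H3K27me3 and 30.1% and 34.8% H3K4me3. LPGAT1, a lysophospholipid acyltransferase on chromosome 9 (131499153 to 131517975), had 4.61% and 8.36% H3K4me3 in morulae, and RAD51B, a recombination repair gene on chromosome 7 (92199188 to 92217713), had 8.26% and 7.95%. SLC38A1, another amino acid transporter, on chromosome 5 (77073765 to 77083250), had 29.4% and 30.6%. With PLAGL1 these make up the 10 widest domains, apart from SLC38A1, which was named through the transporter list.

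In 13 new domains H3K4me3 covered the full length in both blastocyst libraries, and in 25 it did so in both morula libraries. The first 5 of the 13 by position illustrate their places. MGAT1 and ZFP62 share a domain on chromosome 2 (57857581 to 57863099), with H3K4me3 at 0% in both 4-cell libraries and 80.3% and 100% in morulae. NAA60 and ZNF174 share another on chromosome 3 (38805614 to 38815170), with 14.4% and 20.2% in 4-cell embryos and 76.4% and 62.7% in morulae. A domain of 15851 bp at GLI4 and TOP1MT on chromosome 4 (1182018 to 1197868) had 3.12% and 0% in 4-cell embryos and 65.7% and 33.1% in morulae. The other two lay on chromosome 5, 0.44 kb from KIAA1551 (42300037 to 42305894) and 96.4 kb from BTG1 (90914345 to 90920824). Each of the 5 had lower H3K4me3 cover in both 4-cell libraries than in either morula library.

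The new domains had low H3K4me3 cover in both 4-cell groups. H3K4me3 covered 10.6% and 10% of them in siKDM5BC 4-cell embryos and 4.54% and 2.88% in untreated 4-cell embryos. Chromosome-wide cover was 7.67% and 7.03% against 2.45% and 1.37%, so the new domains held 1.38 and 1.43 times the chromosome-wide cover after knockdown and 1.86 and 2.10 times without it. The share was 6.61 points higher after knockdown and the difference in the ratio was −0.576. With 2 libraries against 2 the exact permutation test, two-sided, gave p = 0.333 for each, the smallest it can give. Kept domains reached 53.5% and 52.3% after knockdown, against 21.9% and 13.5% without it. At least 50% cover in both siKDM5BC libraries was found in 52 new domains (7.16%), against 3.73% of windows and 433 (54.2%) of kept domains.

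By mean cover, 221 new domains (30.4%) were higher after knockdown, against 27.2% of windows, 102 (14.0%) were lower, against 5.05% of windows, and 403 had no H3K4me3 peak in any of the 4 libraries. A difference of over 50 points was seen in 23 (3.17%), against 3.07% of windows, a share close to the background. The 5 domains with the widest difference lay near or in genes of varied kind. A domain 2.83 kb from GLI4 on chromosome 4 (1225282 to 1233083) had 0% in both untreated libraries and 100% and 91.2% after knockdown. A domain 23.5 kb from BAHCC1 on chromosome 12 (1430149 to 1435152) had 0% and 4.96%, then 92.0% and 100%, and no H3K4me3 in morulae or blastocysts. ZC3H12D, a zinc finger RNA-binding protein gene on chromosome 1 (16481439 to 16487621), had 0% in both, then 98.4% and 84.2%. All 5, with MCOLN3 on chromosome 4 (130860098 to 130867822) and SCUBE2 on chromosome 9 (398686 to 404548), had H3K4me3 in both untreated 2-cell libraries, at 19.4% to 96.3%. At BMPR1B, GABRG3, CDH13 and SEMA6D H3K4me3 was 0% in both knockdown and both untreated 4-cell libraries. The wider PLAGL1 domain had 0% in both knockdown libraries, against 0% and 5.17% untreated. At PAX6 H3K4me3 was 83.7% and 81.7% after knockdown, against 60.8% and 55.1% untreated.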

How the data were processed

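The data are 30 lists of broad peaks, 1 per library, with peak positions in build susScr11. The submitters' processing notes name Bowtie2 2.4.1 and MACS2. The version of MACS2, the calling threshold and any input are not given in the sources used here. In the deposited lists, the authors' signal value is a fold enrichment ratio. Each deposited peak also has a −log10 p-value and a −log10 q-value. All were used only to describe or filter peaks. The lists hold no read totals, so depth is unknown, and no interval that needs it was made.

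From the peak positions, the covered share of domains was computed per library (covered bases over summed length, with overlapping peaks merged). Chromosome length was taken as the furthest peak end over all libraries, 2270 Mb in all. Genes came from the RefSeq table of the same assembly, and a gene was met from 1 bp. Of the 486 gene symbols that the lists spell out, 454 were found in it. Python 3.11.15, numpy 2.4.6, pandas 2.3.3, scipy 1.17.1 and matplotlib 3.10.9 were used, with seed 1. Stages were compared by permutation tests of F, exact or with 100000 random assignments, sets by exact sign-flip tests within library, and the knockdown by an exact permutation test, with BH adjustment over 8 tests. The tests were tested on simulated data.

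Members and gene lists were chosen with earlier results of these data known. Domains named were the 10 widest, the 5 highest each in morula H3K27me3, blastocyst H3K4me3 and siKDM5BC minus 4-cell cover, and the 5 on either side of the width limit. Named genes were those of the lists in the widest domains (37 list genes met a new domain, so up to 3 per list, with MAF and NEUROG2 added to complete the transcription factors) and the genes in or nearest to the named domains. Alternatives changed the width limit, replicate 2 cover, source replicate, MII distance, −log10 q, fold, joining of peaks, left-out libraries and the replicate block. Chromosome X was left out by the rule, and other sequences were not used here.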

Additional observations from a re-analysis of the deposited data

Results flagged for a closer look

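Chromosome X was outside the rule. By the same limits it held 57 new domains, or 4.53 per 10 Mb against 3.2 per 10 Mb on chromosomes 1 to 18, and 73 kept domains. H3K27me3 covered 5.54% and 8.6% of X in the blastocyst libraries, against 3.43% and 4.33% of the autosomes. In the X domains H3K4me3 covered 19.5% and 26.7% in morulae and 15.2% and 15.5% in blastocysts, and H3K27me3 16.2% and 20.6% in morulae. The H3K4me3 values were below those of the autosomal new domains in all 4 libraries. The sex of the embryos is not given in the labels used here.

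The difference in H3K4me3 cover between new and kept domains had opposite signs at different stages. It was 22.2 points in morulae and 11.8 points in blastocysts, positive in every library, and negative in every library of the 6 stages from GV oocyte to 8-cell embryo. The change of sign itself was not tested.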

How the results depend on the processing

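Of 162 alternative values of the 8 tests, 148 kept the direction and the side of the 0.05 threshold, judged before BH adjustment. The counts of domains and genes are not among these. Part of the 148 was fixed in advance. Stage differences take the highest minus the lowest mean, so their sign could not change. The 14 alternatives of each knockdown test gave exact permutation p of 0.333 to 0.5, and so few libraries cannot reach 0.05. The cause of the changes was not tested, except that stricter limits leave fewer domains or peaks. The number of new domains was 86 at 10 kb and 2635 at 3 kb, and 152 coding genes were met when only gene ends counted, against 352. The H3K4me3 difference between new and kept domains was −10.8 points (exact p = 0.0194) at 10 kb, −9.72 (exact p = 0.0362) at 80% cover, −15.8 (exact p = 0.0197) with peaks under 3 kb apart joined, +0.217 (exact p = 0.909) at −log10 q of 3, and −11.4 to −7.93 without each library. The H3K27me3 difference was −1.20 at 3 kb, −1.33 from replicate 2 and −2.76 on stage means, none past the threshold, and −3.06 to −2.37 without each library. The H3K27me3 stage difference ran from 23.5 to 28.1 points without each library, with exact p = 0.0667 without 2-cell replicate 1, 2-cell replicate 2 or 4-cell replicate 1. Over its other settings it ran from 5.58 to 37.2 points, and the H3K4me3 stage difference from 17.3 to 49.4 points (permutation p = 8e-05 to 0.00395). With the replicate block the permutation p was 0.0417 for H3K27me3 share (25.8 points) and ratio (49.1), 0.00113 for H3K4me3 share (44.0 points), 0.00013 for its ratio (7.16) and 0.5 for knockdown (6.61 points and −0.576), and it changed no call. Deviations of same-numbered libraries correlated above 0.1 in 0 of 6 stage pairs of H3K27me3 and 2 of 28 of H3K4me3. The correlations ran from −0.0999 to 0.0809 for H3K27me3 and from −0.352 to 0.355 for H3K4me3. Their medians were −0.0167 and −0.00766, and they were not tested. Without read totals, a domain with no peak is one in which none was called, not one without the mark.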
